A study of Mus musculus with 8 samples.

Results

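Bone morphogenetic protein (BMP) ligands and the secreted proteins that bind and block them were examined in RNA from 8 mouse knee joints. The 10 genes were taken by name from the table of 20681 genes. They comprise 6 ligand genes (Bmp2, Bmp4, Bmp5, Bmp6, Bmp7 and Gdf5) and 4 antagonist genes (Grem1, Nog, Chrdl1 and Fst), and each name had 1 row. All 8 joints are described as coming from Acan-Cre;Loxl2 fl/fl mice, in which Cre recombinase under control of the aggrecan gene removes the floxed part of Loxl2 in cells that use that gene, such as cartilage cells. Muscle and blood are not targeted by design. Which cells of bone, synovium and other joint tissues carried the deletion is not given in the sources used here. The 4 control libraries are described as vehicle-treated and named LOXL2wt, and the 4 knockout libraries are named LOXL2ko. All 8 library names carry DMM, which usually means surgical destabilisation of the medial meniscus. The age of the mice, the time after surgery and what the knockout mice received in place of vehicle are not given in the sources used here. Nothing says whether the replicates were separate animals, so the p-values measure the spread between these libraries, which may in part be technical.

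BMPs are secreted dimers of the TGF-beta superfamily. They bring together type I and type II serine/threonine kinase receptors, which phosphorylate Smad1, Smad5 and Smad9, and these enter the nucleus with Smad4 and switch on genes such as those of the Id family. Noggin, gremlin 1 and chordin-like 1 bind BMPs in the extracellular space and keep them from their receptors, whereas follistatin mainly neutralises activins and also binds several BMPs. In the joint the pathway is known for its part in joint formation, in cartilage and bone growth and in the formation of bony outgrowths after injury.

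The ligands fall into subgroups by sequence, Bmp2 with Bmp4, Bmp5 with Bmp6 and Bmp7, and Gdf5 apart. The last 90 coding bases, ending with the stop codon, are shown because the 2 called ligands below, Bmp2 and Bmp5, belong to different subgroups. They were read from GENCODE release M21 transcripts on the build GRCm38 (mm10). Capitals mark bases that differ from the first gene of each subgroup.
Bmp2: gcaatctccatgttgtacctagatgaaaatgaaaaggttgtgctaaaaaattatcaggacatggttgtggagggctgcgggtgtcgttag
Bmp4: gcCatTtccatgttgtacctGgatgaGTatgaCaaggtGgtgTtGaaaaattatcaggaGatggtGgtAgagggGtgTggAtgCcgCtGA
Bmp5: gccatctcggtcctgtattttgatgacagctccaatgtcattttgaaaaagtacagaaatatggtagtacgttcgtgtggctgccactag
Bmp6: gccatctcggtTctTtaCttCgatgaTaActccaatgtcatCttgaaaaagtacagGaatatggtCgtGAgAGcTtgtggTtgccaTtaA
Bmp7: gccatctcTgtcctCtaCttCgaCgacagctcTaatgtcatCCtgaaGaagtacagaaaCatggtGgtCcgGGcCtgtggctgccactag
Over these 90 bases Bmp4 differed from Bmp2 at 19 positions, Bmp6 from Bmp5 at 17 and Bmp7 from Bmp5 at 15. Over the last 300 coding bases the 4 pairs within a subgroup were 77.7% to 80.3% identical. The longest run of identical bases shared by the coding sequences of any 2 of the 6 ligands was 25, in Bmp6 and Bmp7. The read length is not given in the sources used here.

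The libraries held 13991000 to 17411617 reads assigned to genes, and their values below are normalised read counts, that is, reads divided by 1 size factor per library. Values listed per joint follow the replicate numbers, from the first to the fourth. Differences are given on the scale of log2(value + 1), as the libraries labelled knockout minus those labelled control. The limma fit took in the 14949 genes that reached 10 in 4 or more libraries, and "called" means an adjusted p below 0.05. Loxl2 itself was 282, 349, 1135 and 311 across the control joints against 893, 1468, 960 and 1518 across the joints labelled knockout. The transcript of the targeted gene was therefore higher in the libraries labelled knockout, by 1.44 (SE 0.40, limma adjusted p = 0.0294; exact two-sided permutation p = 0.0857). Control replicate 3 lay within the range of the other group. Values per gene do not show which exons were read, and an exchange of the group labels was not tested. The directions below are those of the labels, and an exchange would turn each of them around. Values without control replicate 3 are given with the called genes. Markers of a knee joint were present, with the lubricin gene Prg4 at 10288 to 42836 over both groups, Col2a1 at 146 to 2721 and Acan at 52.3 to 544. Muscle dominated the libraries, the skeletal actin gene Acta1 reaching 214458 to 435176.

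Of the 10 genes, 8 were abundant enough to be tested, and 2 were called higher in the libraries labelled knockout, Bmp2 and Bmp5. That is 25% of the tested members, against 11.6% of all tested genes called higher, and with 8 genes nothing is read from the share. No member was called lower by limma, edgeR or DESeq2, or had an unadjusted p under 0.05 in that direction, while 11.6% of all tested genes were called lower and 23.2% in either direction. In the limma fit 5741 of the 14949 tested genes had an unadjusted p under 0.05 in either direction. Every count of unadjusted p-values below is to be read beside that number. The groups did not overlap for 3 members, all higher (Bmp2, Bmp4 and Bmp5), and for 0 in the lower direction. Over all tested genes these shares were 11.7% and 13.4%. A scaling computed without the 50 most abundant genes and without markers of muscle, red cells and neutrophils gave 2719 higher and 777 lower calls, where the deposited scaling gave 1732 and 1729. The median difference of all genes then moved from 0.00 to 0.15, so that differences up to that size are not separable from the choice of scaling. Single members could move by more. Bmp2 was 0.59 under quantile normalisation and 0.98 under the reduced scaling, and Bmp4 was 0.30 and 0.69.

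**Figure D1:**
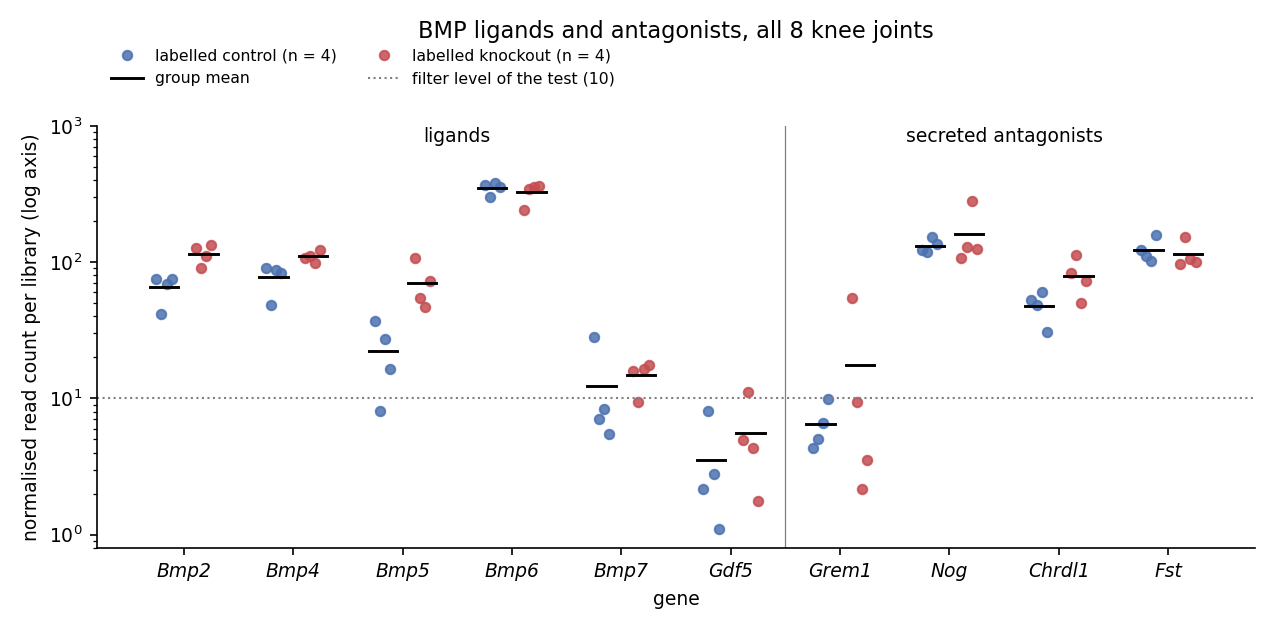
Normalised read count (log axis) of the 6 ligand and 4 antagonist genes in each of the 8 libraries, with bars at the group means and a dotted line at the filter level of 10. For Bmp2, Bmp4 and Bmp5 all 4 libraries labelled knockout lie above all 4 control libraries, and Grem1 and Gdf5 lie mostly below the dotted line.

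Among the ligands, Bmp5 had the largest difference. It encodes a BMP expressed in developing skeletal elements and needed for normal ear and rib cartilage in mice. Its value was 36.8, 8.08, 27.1 and 16.4 across the control joints against 107, 54.7, 46.8 and 72.2 across the joints labelled knockout. The lowest value of the joints labelled knockout was above the highest control value, and within each group the first replicate was the highest. The group means were 22.1 ± 12.5 and 70.1 ± 26.6 (SD, n = 4), a log2 difference of 1.74 (SE 0.44, 95% interval 0.75 to 2.73; limma adjusted p = 0.0215). The exact permutation p was 0.0286, the smallest that 4 libraries against 4 can give. Bmp5 is annotated at chromosome 9, 75775364 to 75900310, plus strand (mm10), with Gm47723 annotated on the same strand and Gm26903 on the opposite strand within it. How the authors' counting treated strand is not given in the sources used here, so reads of these genes were not necessarily kept apart. Between 8 and 107 reads stood behind each value. Its limma adjusted p passed 0.05 when 1 of 3 libraries was left out, at 0.0533 for control replicate 4, 0.0577 for knockout replicate 1 and 0.0615 for knockout replicate 4, while without control replicate 3 the difference was 1.90 (adjusted p = 0.0239).

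The promoter window of Bmp5 is shown because it is the called member with an entry in the RefSeq promoter table (GRCm38.p6), in which 4 of the 10 members were matched. It covers 250 bases before to 50 bases after the start of the gene, at chr9:75775115-75775414 on the plus strand.
Bmp5: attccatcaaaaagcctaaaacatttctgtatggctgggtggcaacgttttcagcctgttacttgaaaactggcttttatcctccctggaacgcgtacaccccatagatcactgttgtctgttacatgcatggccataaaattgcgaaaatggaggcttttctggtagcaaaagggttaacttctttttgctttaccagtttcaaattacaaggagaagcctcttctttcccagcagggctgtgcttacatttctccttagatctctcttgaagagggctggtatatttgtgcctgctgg
Of its bases 43.3% were G or C. It held none of 3 motifs searched on both strands, each of which reads the same on either strand: GGCGCC, a GC-rich element of BMP-responsive promoters, GTCTAGAC, a Smad-binding palindrome, and CAGCTG, an E-box. Among the 32851 promoters of the table, 11.9%, 0.213% and 16.3% held them.

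Bmp2, a ligand that drives bone formation and chondrocyte maturation, was also higher. The control joints had 74.6, 41.4, 69.2 and 75.6, and the joints labelled knockout had 127, 89.8, 110 and 134. The lowest library labelled knockout was above the highest control library. The means were 65.2 ± 16.1 and 115 ± 19.6 (SD, n = 4), a log2 difference of 0.83 (SE 0.23, 95% interval 0.32 to 1.34; limma adjusted p = 0.0280, exact permutation p = 0.0286). Bmp2 is annotated at chromosome 2, 133552159 to 133562885, plus strand and overlaps no other annotated gene. The call was lost under quantile normalisation (difference 0.59, limma adjusted p = 0.0777) and when control replicate 2 (adjusted p = 0.0547), the first (0.0688) or the fourth (0.0833) knockout replicate was left out. Without control replicate 3 the difference was 0.87 (adjusted p = 0.0389).

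Bmp4, the closest relative of Bmp2, had 89.8, 48.5, 87.9 and 83.2 across the control joints against 108, 111, 99.0 and 122 across the joints labelled knockout. The groups did not overlap, yet the difference was not called. It was 0.54 (SE 0.21, 95% interval 0.07 to 1.02; limma adjusted p = 0.0914, exact permutation p = 0.0286), between means of 77.3 ± 19.4 and 110 ± 9.68 (SD, n = 4). Control replicate 2 was far below the other 3 control libraries. None of the 17 alternative settings called Bmp4, with limma, edgeR or DESeq2 adjusted p-values from 0.0506 to 0.275 and differences from 0.30 to 0.69. Bmp4 is annotated at chromosome 14, 46383520 to 46390669, minus strand, opposite Gm15217 and Gm15222.

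Bmp6, which in the liver controls hepcidin and iron balance and is also made by hypertrophic chondrocytes, was the most abundant ligand. Its value was 368, 298, 379 and 357 across the control joints against 240, 342, 352 and 364 across the joints labelled knockout. The groups overlapped almost fully, and knockout replicate 1 was the lowest library. The difference was -0.12 (SE 0.15, 95% interval -0.45 to 0.21; limma adjusted p = 0.580, exact permutation p = 0.486). That interval covers both a fall and a small rise. Bmp6 is annotated at chromosome 13, 38345107 to 38500302, plus strand, opposite Txndc5 and 4930579J19Rik.

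Bmp7 and Gdf5, the ligands best known from kidney and eye development and from joint formation, were close to the limit of what could be counted. Bmp7 had 28.1, 7.07, 8.41 and 5.48 across the control joints against 16.0, 9.41, 16.3 and 17.6 across the joints labelled knockout, from 5 to 26 reads. It passed the filter through 1 control and 3 knockout libraries. The highest of all 8 values was in control replicate 1, and the difference of 0.50 (SE 0.50, 95% interval -0.61 to 1.61; limma adjusted p = 0.496, exact permutation p = 0.371) was not called. Without control replicate 1 it was 0.97 (adjusted p = 0.115). Gdf5 had 2.16, 8.08, 2.80 and 1.10 across the control joints against 4.99, 11.1, 4.35 and 1.76 across the joints labelled knockout, from 1 to 13 reads, and was not tested. In the fit with no filter its difference was 0.56 (95% interval -0.79 to 1.90), which covers both a fall and a large rise.

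**Figure D2:**
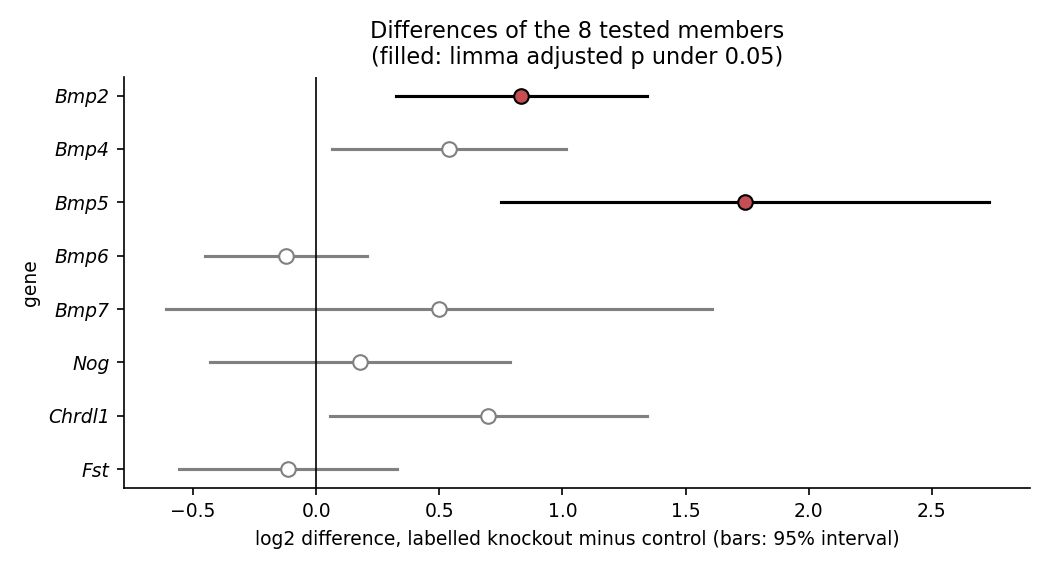
Knockout minus control difference (log2) of the 8 tested genes, with 95% intervals from the limma fit. Only the filled points, Bmp2 at 0.83 and Bmp5 at 1.74, had an adjusted p under 0.05, and the intervals of Bmp4 and Chrdl1 also lie above 0.

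Among the antagonists no gene was called by limma, edgeR or DESeq2, and 1 of the 3 tested, Chrdl1, had an unadjusted p under 0.05 with each tool. With limma 5741 of all 14949 tested genes had such a p-value, so nothing is read from 1 of 3. Chrdl1 encodes chordin-like 1, which binds BMP4 in particular. It had 53.0, 48.5, 59.8 and 30.7 across the control joints against 82.8, 112, 50.02 and 73.1 across the joints labelled knockout. In 3 of the 4 libraries labelled knockout it was above every control library, and knockout replicate 3 lay inside the control range. The difference was 0.70 (SE 0.29, 95% interval 0.06 to 1.34; limma adjusted p = 0.103, exact permutation p = 0.0857). Without knockout replicate 3 it was 0.90 and was called (limma adjusted p = 0.0412). The gene is annotated at chromosome X, 143285674 to 143394262, minus strand, with no overlapping gene.

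Nog, the gene of noggin, was the most abundant antagonist per length of transcript. Its value was 122, 118, 152 and 136 across the control joints against 108, 130, 282 and 124 across the joints labelled knockout. Knockout replicate 3 was far above the other 7 libraries, which lay between 108 and 152. The difference was 0.18 (SE 0.27, 95% interval -0.43 to 0.79; limma adjusted p = 0.668, exact permutation p = 0.829), and without knockout replicate 3 it was -0.13 (adjusted p = 0.571). Nog is annotated at chromosome 11, 89300638 to 89302332, minus strand and overlaps no other gene.

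Fst, the follistatin gene, had 122, 111, 101 and 157 across the control joints against 96.7, 154, 104 and 100.3 across the joints labelled knockout. The groups overlapped, with 1 high library in each. The difference was -0.11 (SE 0.20, 95% interval -0.56 to 0.33; limma adjusted p = 0.707, exact permutation p = 0.514). Fst is annotated at chromosome 13, 114452290 to 114458951, minus strand, opposite Gm47040.

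Grem1, the gremlin 1 gene, which marks connective tissue progenitors in bone and other organs, was not tested. The control joints had 4.33, 5.05, 6.54 and 9.86, from 4 to 9 reads. The joints labelled knockout had 54.9, 9.41, 2.17 and 3.52, from 55, 11, 2 and 4 reads. A single library, knockout replicate 1, was high, and 2 of the others were below every control library. With no filter the difference was 0.42 with a 95% interval of -1.31 to 2.14 (limma adjusted p = 0.772, exact permutation p = 0.800). Grem1 is annotated at chromosome 2, 113746164 to 113758646, minus strand, and Bmp2, Gdf5 and Bmp7 lie on the same chromosome.

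Levels of different genes were compared per kilobase of annotated exon. In the control group Bmp6 stood highest at 89.8 ± 9.25 (SD, n = 4) normalised reads per kilobase, followed by Nog at 77.9 ± 9.12, Bmp4 at 34.4 ± 8.65, Fst at 26.7 ± 5.28 and Bmp2 at 18.3 ± 4.53. Chrdl1 at 7.10 ± 1.84, Bmp5 at 5.49 ± 3.11, Bmp7 at 3.05 ± 2.65, Grem1 at 1.55 ± 0.59 and Gdf5 at 1.52 ± 1.34 came after them. The ranges of Bmp6 and Nog overlapped, and so did those of Bmp4 and Fst, and each neighbouring pair from Chrdl1 down to Gdf5. The steps from Nog to Bmp4, from Fst to Bmp2 and from Bmp2 to Chrdl1 were free of overlap. In the libraries labelled knockout Bmp2 was at 32.4 ± 5.51 and Bmp5 at 17.4 ± 6.61 on this scale. Their neighbours there were Fst at 24.8 ± 5.86, whose range overlapped both, and Bmp4 at 49.0 ± 4.31, whose range was above that of Bmp2. Bmp6 and Nog still stood above all other members in both groups, so the members that differed were not the abundant ones.

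**Figure D3:**
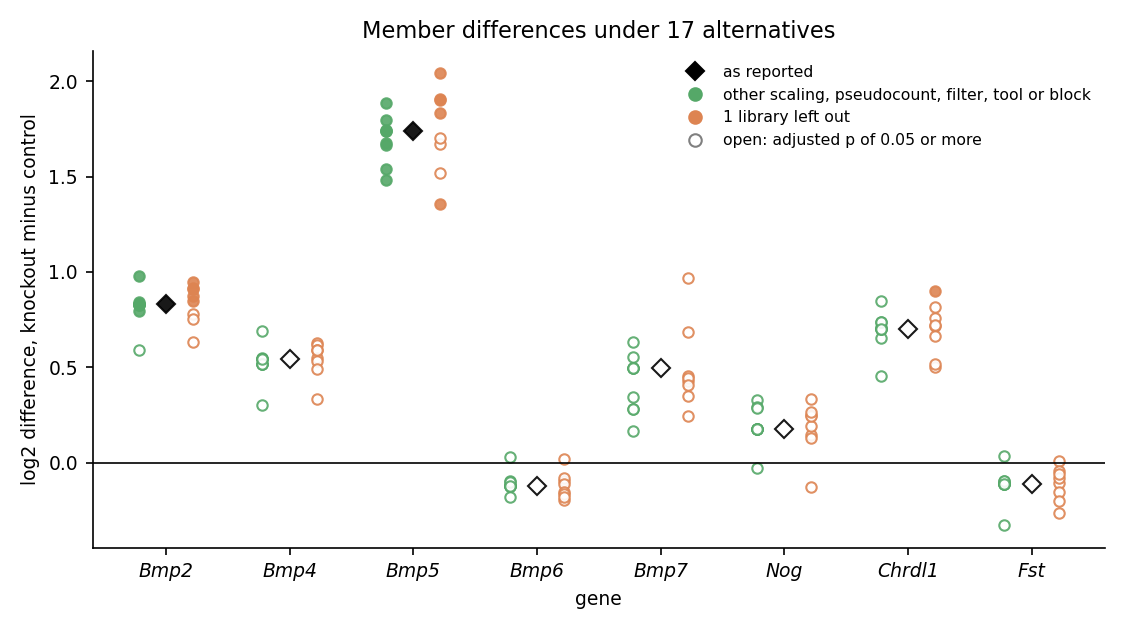
Log2 difference of each tested gene as reported (diamond) and under 17 alternatives, of which 8 leave out 1 library each. Filled symbols had an adjusted p under 0.05. Bmp2 stays between 0.59 and 0.98 and Bmp5 between 1.36 and 2.04, while Bmp6, Nog and Fst lie on either side of 0.

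The other genes of the pathway were read from lists of ligands, modulators, receptors, Smads and targets. Of 11 tested target genes, 6 were called higher and 0 lower (54.5% called, against 23.2% of all tested genes in either direction and 11.6% higher), with 11 of 11 differences above 0 and a median of 0.51, against a median of 0.00 over all genes. At an unadjusted p under 0.05 the lower count was also 0, and edgeR called 6 and DESeq2 7, all higher. The targets with the smallest p-values were Id2, Id3, Dlx5 and Smad6. Id2 and Id3 encode inhibitors of basic helix-loop-helix factors that BMP signals induce directly. Id2 had 77.7 to 132 in the control libraries and 280 to 467 in the others (log2 difference 1.67, SE 0.21, limma adjusted p = 0.00397). Id3 had 514 to 777 and 1047 to 1272 (log2 difference 0.90, SE 0.14, limma adjusted p = 0.00501).

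Dlx5, a homeobox gene of bone-forming cells, had 31.8 to 89.8 and 110 to 215 (log2 difference 1.76, SE 0.33, limma adjusted p = 0.00833). Smad6 encodes an inhibitory Smad that BMP signals induce and that dampens them. It had the narrowest spread of these genes, with 224 to 246 in the control libraries and 306 to 329 in the others, differing by 0.43 (SE 0.09, limma adjusted p = 0.0110). None of these 4 genes had overlapping groups, and each stayed called in all 8 fits that left out a library. The other 2 called targets, named after their values were seen, were Bambi, a decoy receptor gene (1.10, limma adjusted p = 0.0241), and Id1 (0.51, adjusted p = 0.0461). Id1 lost its call in 7 of the 8 fits without a library, and Bambi in 3. Without control replicate 3 the differences were 1.69 for Id2, 0.97 for Id3, 1.79 for Dlx5, 0.41 for Smad6 and 1.16 for Bambi, all called by limma, and 0.44 for Id1, which was not (adjusted p = 0.0946). These genes respond to other signals as well, and Dlx5 is itself a marker of bone-forming cells.

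**Figure D4:**
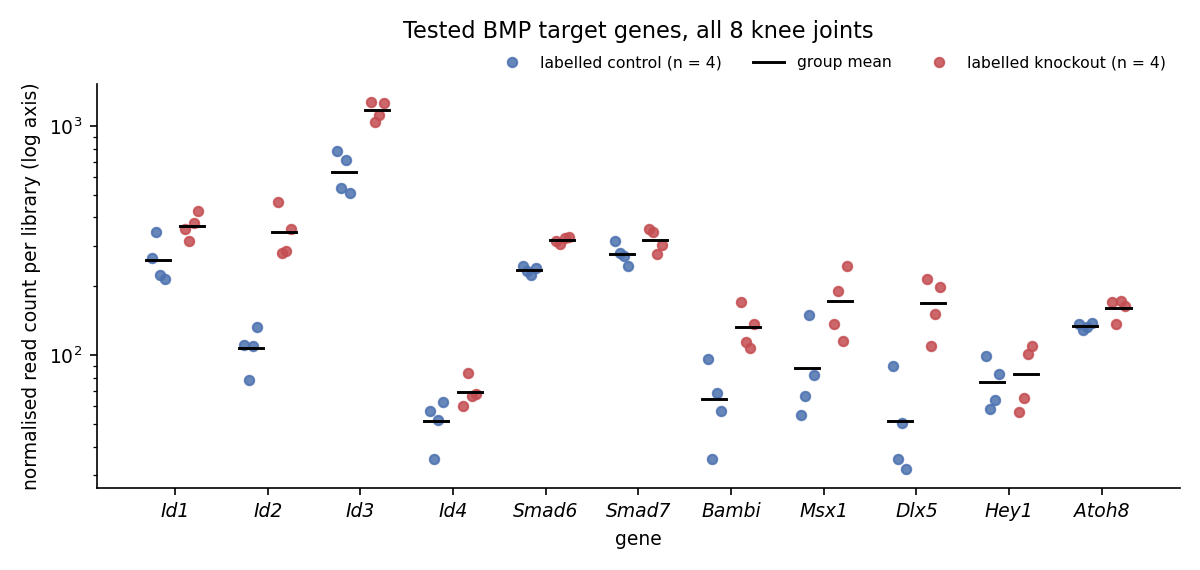
Normalised read count (log axis) of the 11 tested target genes in each of the 8 libraries, with bars at the group means. For Id2, Id3, Smad6, Bambi and Dlx5 the groups do not overlap.

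The promoter window of Id2 is shown as that of the target with the smallest p-value. It lies at chr12:25096043-25096342 on the minus strand (GRCm38.p6), and capitals mark GGCGCC and CAGCTG, each present once.
Id2: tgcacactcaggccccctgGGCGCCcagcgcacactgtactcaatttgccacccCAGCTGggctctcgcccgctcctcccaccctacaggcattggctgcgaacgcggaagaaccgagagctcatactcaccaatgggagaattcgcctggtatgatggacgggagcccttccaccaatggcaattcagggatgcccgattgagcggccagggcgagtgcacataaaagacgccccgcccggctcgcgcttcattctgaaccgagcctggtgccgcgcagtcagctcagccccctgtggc
The window of Id3, the target with the next smallest p-value, held 0 copies of GGCGCC, of GTCTAGAC and of CAGCTG. A match of these letters is a description of the window and not evidence of a bound factor.

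Receptors take up the ligands at the cell surface, and Smads carry the signal on. Of 12 tested receptor and co-receptor genes limma, edgeR and DESeq2 each called 0, and 1, 1 and 2 had an unadjusted p under 0.05, all lower. Their median difference was -0.08. Over all tested genes limma called 23.2% in either direction. With 12 genes here and 8 Smads and Smad ubiquitin ligases below, nothing is read from these counts. The type II receptor gene Bmpr2 had 1057 to 1543 in the control libraries and 1183 to 1537 in the others (log2 difference 0.00, SE 0.13), and the type I receptor gene Bmpr1a differed by 0.06 (SE 0.18). Of 8 Smads and Smad ubiquitin ligases limma called 0, with 1 at an unadjusted p under 0.05, and edgeR and DESeq2 each called 1 higher. Smad1, chosen after its value was seen, had 215 to 271 and 273 to 363, a difference of 0.37 that limma did not call (adjusted p = 0.0529) although the groups did not overlap. The groups of the receptor gene Acvr2b did not overlap either, at 111 to 144 and 92.4 to 106, lower in the libraries labelled knockout (limma adjusted p = 0.201). Over all tested genes the groups did not overlap for 11.7% in the higher and 13.4% in the lower direction.

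Among 14 other tested antagonists and modulators, 4 were called higher and 0 lower. That is 28.6% called, near the 23.2% of all tested genes called in either direction. Among the 14, 1 had an unadjusted p under 0.05 in the lower direction, and edgeR and DESeq2 each called 4 higher. Of these 4, Chrd and Bmper encode chordin and a chordin-like binding protein. The other 2, Bmp1 and Tll1, are not ligands or antagonists but encode astacin proteinases that cleave chordin and process procollagens. Bmp1 had 764 to 1731 and 2010 to 3435 (log2 difference 1.18, SE 0.29, limma adjusted p = 0.0201). Tll1 differed by 1.72 (SE 0.46, limma adjusted p = 0.0246) at 6.49 to 43.9 normalised reads, Bmper by 1.34 (SE 0.40, adjusted p = 0.0365) and Chrd by 0.47 (SE 0.14, adjusted p = 0.0380). Tll1 passed the filter through 1 control and 4 knockout libraries, that is, mainly through the group in which it was high. Without control replicate 3 the differences were 1.36 for Bmp1, 2.14 for Tll1, 1.62 for Bmper and 0.50 for Chrd, all called by limma. The count of called genes on the list was 0 without control replicate 2, control replicate 4, knockout replicate 2 or knockout replicate 4, 2 without knockout replicate 1, 1 under quantile normalisation, and 5 and 6 without control replicate 3 and knockout replicate 3.

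Of 6 other tested BMP and GDF ligands, limma called 2 lower and 0 higher, with 2 at an unadjusted p under 0.05 in each direction. Over all tested genes 11.6% were called lower and 23.2% in either direction, and with 6 genes nothing is read from the share. edgeR called the same number in each direction, and DESeq2 called 2 higher and 2 lower. Mstn, the gene of myostatin, which limits muscle growth, fell from 616 ± 67.9 to 350 ± 98.2 (SD, n = 4), by a log2 difference of -0.85 (SE 0.19, limma adjusted p = 0.0128), with no overlap of the groups. Gdf11, its close relative, fell from 408 ± 110 to 211 ± 62.9, by a log2 difference of -0.96 (SE 0.25, limma adjusted p = 0.0232). Gdf11 was no longer called when control replicate 1 (limma adjusted p = 0.0512), control replicate 4 (0.0607) or the fourth knockout replicate (0.0614) was left out. Without control replicate 3 the differences were -0.91 for Mstn and -0.99 for Gdf11, both called.

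**Figure D5:**
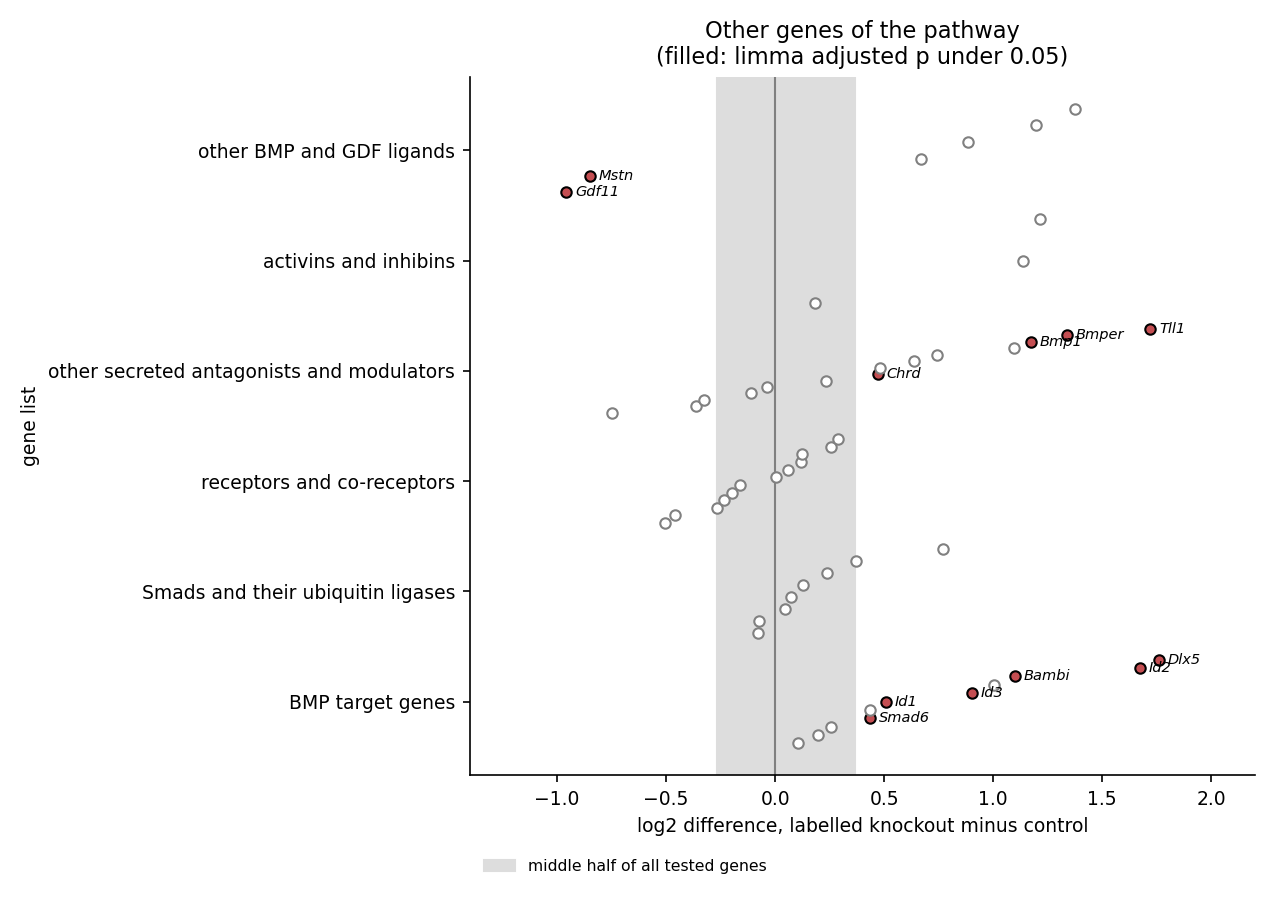
Log2 difference of every tested gene on 6 lists of other pathway genes, with filled points for an adjusted p under 0.05 and a grey band for the middle part of all tested genes, from the lower to the upper quartile. The called target genes run from Smad6 at 0.43 to Dlx5 at 1.76. No receptor gene is called, and of all tested genes 23.2% are called in either direction.

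Markers of several cell types moved with these results, and in whole joints more cells of a type cannot be told apart from more RNA per cell. Over all tested genes 11.6% were called higher and 11.6% lower. Of 10 fibroblast markers 7 were called higher, and their summed level was 34265 to 115803 in the control libraries and 162713 to 259755 in the others. Of 8 osteoblast and osteocyte markers 4 were called higher, with sums of 1122 to 7587 and 6305 to 12921. Osteoclast markers (7 of 8 called higher, sums of 1868 to 14065 and 10270 to 39329) and macrophage markers (8 of 8, 2817 to 6668 and 9880 to 14084) moved the same way. Tendon and ligament markers did so too, with 4 of 6 called higher and sums of 3713 to 8478 and 10007 to 18887.

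Of 9 tested chondrocyte markers 1 was called higher, near the 11.6% of all tested genes, with sums of 3630 to 9296 and 9455 to 14284. Their differences were above 0 for 9 of 9 (median 0.79), and Comp alone had 2565 to 6974 and 5810 to 11075. Of 12 skeletal muscle markers 3 were called lower, with sums of 1990960 to 2140870 and 1049910 to 1412800, and 0 of 12 differences were above 0 (median -0.62). Of 7 erythroid markers limma called 0, with 7 of 7 differences below 0 (median -1.95) and overlapping sums of 16471 to 97685 and 3994 to 41788. Limma called 0 of 6 endothelial, 0 of 6 adipocyte and 0 of 7 neutrophil markers. Differences above 0 numbered 0 of 7 for neutrophils (median -0.64), 2 of 6 for endothelial and 2 of 6 for adipocyte markers. Limma called 1 of 6 synovial lining and 1 of 6 Schwann cell markers higher. Lower calls were 1 of 6 pericyte and smooth muscle markers and 1 of 2 tested keratinocyte markers. Every fibroblast, osteoblast, osteoclast, macrophage and muscle marker had a row in the table, and of the chondrocyte markers only Matn1 had none. Bmp5 was highest in replicate 1 of both groups (36.8 and 107), and so were the sums of the osteoblast (7587 and 12921), osteoclast (14065 and 39329) and fibroblast markers (115803 and 259755). The fibroblast sum of control replicate 1 was mostly Col1a1 (58034) and Col1a2 (47992). The other fibroblast markers were highest among the controls in replicate 3, such as Col3a1 (37778, against 5083 in replicate 1) and Lum (4979 against 1124). Other sums did not share this order. Macrophage markers were highest in control replicate 3 (6668) and knockout replicate 4 (14084). For tendon and ligament these were control replicate 3 (8478) and knockout replicate 2 (18887), and for chondrocytes control replicate 1 (9296) and knockout replicate 4 (14284). The part of these cell types in the differences of Bmp2, Bmp5, the targets, Mstn and Gdf11 was not tested.

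For each called member the 2 tested genes with the most similar profile over the 8 libraries were taken, by the root mean square difference of log2 values centred on each gene's mean. For Bmp2 these were Iah1 at 0.09 and Pik3r5 at 0.10, with differences between groups of 0.82 and 0.87. For Bmp5 they were Hvcn1 at 0.20 and Arsb at 0.20, with differences of 1.85 and 1.67. Because the profiles contain the difference between groups, these similar differences follow from how the genes were picked.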

How the data were processed

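Poly-A RNA libraries of 8 mouse knee joints, 4 per group by title, were analysed. The submitters' processing notes name HISAT2, featureCounts and mm10, and per the labels' design text featureCounts gave the count matrix, which the authors normalised and filtered in DESeq2; versions, the gene annotation and the use of strand are not given in the sources used here. The deposited values are a normalised signal, the reads divided by 1 size factor per library. In each column 100% of values were whole multiples of the smallest positive value (tolerance 0.01 reads), and the whole reads so recovered were used for the count tests. In 2 columns that step was 1.01 and 0.997, too near 1 to be informative by itself. Unmapped value columns numbered 0.

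Values were tested as log2(value + 1) with limma 3.58.1 (intensity trend) on 14949 genes with at least 10 in at least 4 libraries, with Benjamini-Hochberg adjustment over all of them. That fit calls 3461 genes, edgeR 4.0.16 calls 3324 and DESeq2 1.42.0 calls 4125. Single genes were also compared by exact two-sided permutation over the 70 assignments. Symbols were matched to GENCODE M21 (99.2% of rows) for coordinates and exon length. The alternatives were other pseudocounts, no filter, other scalings, edgeR, DESeq2, a replicate block and leaving out each library.

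The members and lists were chosen with earlier results of these data known. Named were all 10 members, Loxl2, and from each pathway list at most 4 called genes per direction by smallest p. Bmpr2, Bmpr1a and other genes outside that rule were chosen after their values were seen. On simulated counts with 193 changed genes of 14745, limma called 151, 6 of them falsely, and found 58.8% of those changed by a log2 of 1. In the data limma called 3461 of 14949 genes, a far larger share, so these rates do not carry over directly. No library was a copy of another of its group: over the 12 such pairs, chi-square divided by its degrees of freedom ran from 19.3 to 49.8.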

Additional observations from a re-analysis of the deposited data

Results flagged for a closer look

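Within a group of 4, a library was flagged when its gap to the nearest other took up more than 0.829 of the group's range (Dixon's 95% value). With 46 groups tested, chance alone flags about 1 in 20. The flags below are all that were raised, and they exceed that share. Among the members, Bmp4 was flagged as low in control replicate 2 (48.5), Bmp7 as high in control replicate 1 (28.1), Grem1 as high in knockout replicate 1 (54.9), Nog as high in knockout replicate 3 (282) and Fst as high in knockout replicate 2 (154). These are 5 different libraries, so no single joint carried the flags of the members. Control replicate 3 was flagged as high for Loxl2 (1135), Tll1 (24.3) and Bmper (68.2).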

How the results depend on the processing

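Under other settings, Bmp2, Bmp4, Bmp5, Bmp7 and Chrdl1 kept their direction, and the 2 member calls were the same under both pseudocounts, no filter, TMM scaling, the reduced scaling, edgeR, DESeq2 and the replicate block. Quantile normalisation left 1 member called, turned Nog to -0.028 and left 1 of the other antagonists and modulators called. Scaling without muscle, blood and highest genes turned Bmp6 to 0.028 and Fst to 0.035, both smaller than the shift of the median of all genes under that scaling. Leaving out 1 library gave 0 to 3 members, 1751 to 3841 genes in all, and 0 to 6 other antagonists and modulators called. Across these 8 fits Bmp6 ran from -0.20 to 0.017 (above 0 without knockout replicate 1), Nog from -0.13 (without knockout replicate 3) to 0.33, and Fst from -0.27 to 0.0092 (above 0 without control replicate 4). The Loxl2 difference was 1.23 with edgeR (adjusted p = 0.0669) and 1.23 with DESeq2 (adjusted p = 0.0659), and 1.24 to 1.91 without 1 library (limma adjusted p from 0.00188 to 0.0849). The cause of these changes was not tested. The replicate numbers are not said to pair the libraries, and same-numbered libraries correlated at 0.21, -0.12, -0.23 and -0.06 in their deviations from the group means, not always best with their own number. With the replicate block 2018 genes, 2 members and 0 other antagonists and modulators were called, and Loxl2 was 1.44 (limma adjusted p = 0.0513). Gdf11 (adjusted p = 0.0527), Bmp1, Tll1, Bmper, Chrd and Id1 also lost their calls there. Depth limits Bmp7, Gdf5 and Grem1, which rested on fewer than 30 reads in nearly every library.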

Other observations

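Ratios of 2 members within a library do not depend on the scaling of that library. The 4 ratios below were chosen after the values were seen and compared by exact two-sided permutation of their log2 values. For the log2 values 1 was added to each count, so the differences and tests are not wholly free of the scaling. The ratio of Bmp5 to Bmp6 was 0.10, 0.03, 0.07 and 0.05 across the control joints against 0.44, 0.16, 0.13 and 0.20 across those labelled knockout. The groups did not overlap, and the log2 difference was 1.86 (exact permutation p = 0.0286, adjusted over the 4 ratios p = 0.114). The ratio of Bmp2 to Bmp4 differed by 0.29 (exact permutation p = 0.114, adjusted p = 0.229), with 0.79 to 0.91 in the control libraries and 1.18, 0.81, 1.11 and 1.09 across the joints labelled knockout. For Bmp2 to Nog the difference was 0.66 (exact permutation p = 0.171, adjusted p = 0.229) and for Bmp4 to Nog 0.36 (exact permutation p = 0.429, adjusted p = 0.429).

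Inhba and Inhbb encode the subunits of activins, related ligands that follistatin neutralises, and Inha encodes the alpha subunit of inhibins, which oppose activins. None of the 3 was called by limma, edgeR or DESeq2, which put 2, 1 and 2 of them at an unadjusted p under 0.05. Inhba had 64.9, 136, 343 and 128 across the control joints against 195, 378, 270 and 465 across those labelled knockout (log2 difference 1.14, limma adjusted p = 0.0906). Inhbb had means of 51.5 ± 29.8 and 115 ± 59.1 (SD, n = 4; log2 difference 1.21, limma adjusted p = 0.110). Inha had 138 ± 27.6 and 170 ± 96.1 (SD, n = 4; log2 difference 0.18, limma adjusted p = 0.700).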
